A study of Homo sapiens with 6 samples.

Results

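Krueppel-like factors (KLFs) are transcription factors that bind GC-rich and CACCC-type promoter elements through a C-terminal zinc finger domain. Transcripts of 10 of them, KLF2, KLF3, KLF4, KLF5, KLF6, KLF7, KLF9, KLF10, KLF11 and KLF12, were followed in AN3-CA cells. The members were all probe sets whose deposited gene symbol was exactly 1 of these names. That gave 36 of the 49293 probe sets of the array and 10 of 19040 genes.

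AN3-CA is a human endometrial cancer line, known to carry activating mutations of the receptor FGFR2. Cells were grown for 24 h, moved to serum-free medium and treated for 18 h. The first group received the FGF receptor kinase inhibitor AZD4547 (300 nM) together with acidic fibroblast growth factor (aFGF, 10 ng/mL). The second received aFGF (10 ng/mL) with DMSO as the vehicle, and the third received DMSO without aFGF. Every group was the same cell line in serum-free medium, and each held 2 arrays of cultures labelled as biological replicates. The vehicle is given as 0.5% DMSO, and the DMSO content of the AZD4547 cultures is not given. No group received AZD4547 without aFGF.

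Members of this family differ mainly outside the zinc fingers, where they carry activating or repressing domains. KLF2 and KLF4 are known in endothelium as products of the MEK5 to ERK5 to MEF2 route, which growth factors can engage. KLF10 and KLF11 were first described as genes induced early by TGF-beta. KLF3 and KLF12 are repressors that recruit the corepressor CtBP. In the uterus KLF9 is known as a partner of the progesterone receptor, and KLF12 as a repressor of decidualization in endometrial stroma.

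Levels are log2 intensities, and every fold change is a difference of group means on the log2 scale. Each gene was represented by the brightest of its probe sets (by the mean of all 6 arrays), and called at an adjusted p under 0.05 in limma. A probe set with a mean below 2.87, the median over all probe sets, is referred to as dim, since detection calls were not used here and its level is not shown to lie above background. Of the 36 probe sets, 11 lay above that median, and they belonged to KLF2, KLF3, KLF6, KLF9 and KLF10. All probe sets of KLF4, KLF5, KLF7, KLF11 and KLF12 were dim. Array medians ran from 7.18 to 7.43 in linear intensity.

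The endometrial label was set against marker genes. The lineage genes HOXA10 (7.05), HOXA11 (5.38), EMX2 (3.27) and ESR1 (3.23) lay above the median, whereas PAX8 (2.20) and the progesterone receptor gene PGR (0.48) were dim. Only 2 of 6 epithelial markers, KRT18 and CLDN4, lay above it, and EPCAM (0.47) and CDH1 (1.15) did not. VIM (12.18) and ZEB1 (7.56), mesenchymal features, were high, while CDH2 (2.43), the other mesenchymal marker listed, was dim. Leukocyte markers lay above the median in 0 of 6 cases, endothelial markers in 1 of 5, smooth muscle markers in 1 of 4 and fibroblast markers in 1 of 5 (COL1A2, 9.70). The summed epithelial markers had log2 levels of 5.27 to 5.34 with AZD4547 and aFGF, 5.55 to 5.63 with aFGF and 5.41 to 5.47 in DMSO. The corresponding sums of the mesenchymal markers were 12.14 to 12.15, 12.32 to 12.34 and 12.22 to 12.24, in the same group order. The epithelial and mesenchymal sums were highest with aFGF and lowest with AZD4547, the order seen below for KLF10. Of the 2 epithelial markers above the median, only KRT18 followed this order by group mean, and CLDN4 was highest in DMSO. KRT18 stood at 4.11 and 4.02 with AZD4547 and aFGF, 4.52 and 4.67 with aFGF, and 4.204 and 4.112 in DMSO. The dim epithelial markers did not share 1 order. VIM made up nearly all of the mesenchymal sum (12.07 and 12.08, 12.27 and 12.29, and 12.18 and 12.16), and ZEB1 ran in the opposite order (7.61 and 7.65, 7.50 and 7.47, and 7.58 and 7.55). The endometrial lineage sum was lowest with aFGF, at 7.69 to 7.89 with AZD4547 and aFGF, 7.37 to 7.49 with aFGF and 7.65 to 7.75 in DMSO. HOXA10, the brightest gene of that sum, HOXA11 and EMX2 were lowest with aFGF. ESR1, PAX8 and PGR went the other way, with their highest group mean under aFGF. The part of these markers in the KLF results was not tested. In such bulk cultures, fewer cells of a kind and less RNA per cell cannot be told apart.

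The first question was which KLF transcripts aFGF altered. KLF10 and KLF2 rose and KLF3 fell, so that 3 of 10 genes were called, against 15.6% of all genes (5.92% higher and 9.72% lower). The median log2 fold change of the 10 was -0.072, and that of all genes -0.0083. Of the 36 probe sets 6 were called, 4 higher and 2 lower, against 11.4% of all probe sets. The second question was what AZD4547 altered in cells given aFGF. KLF10 and KLF2 fell and KLF3 and KLF6 rose, 4 of 10 genes, against 25.7% of all genes (15.6% higher and 10.1% lower). The median over the 10 was 0.023, and over all genes -0.020. Of the 36 probe sets 6 were called, 2 higher and 4 lower, against 20.6%. The last question was where expression with AZD4547 and aFGF stood relative to cells given neither. KLF10 lay below DMSO and KLF9 above it, 2 of 10 genes against 4.68% of all genes (2.28% higher and 2.41% lower), with a median of -0.069 for the 10 and -0.014 for all genes. Here 2 probe sets were called, both of KLF10, against 2.49%. The arrays of the groups compared did not overlap for 5, 6 and 6 of the 10 genes in the 3 comparisons, against 50.5%, 60.6% and 44.8% of all genes. The first and second comparisons share the aFGF arrays, the first and last the DMSO arrays, and the second and last the AZD4547 arrays. The members' values are therefore given side by side and not as independent evidence.

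**Figure D1:**
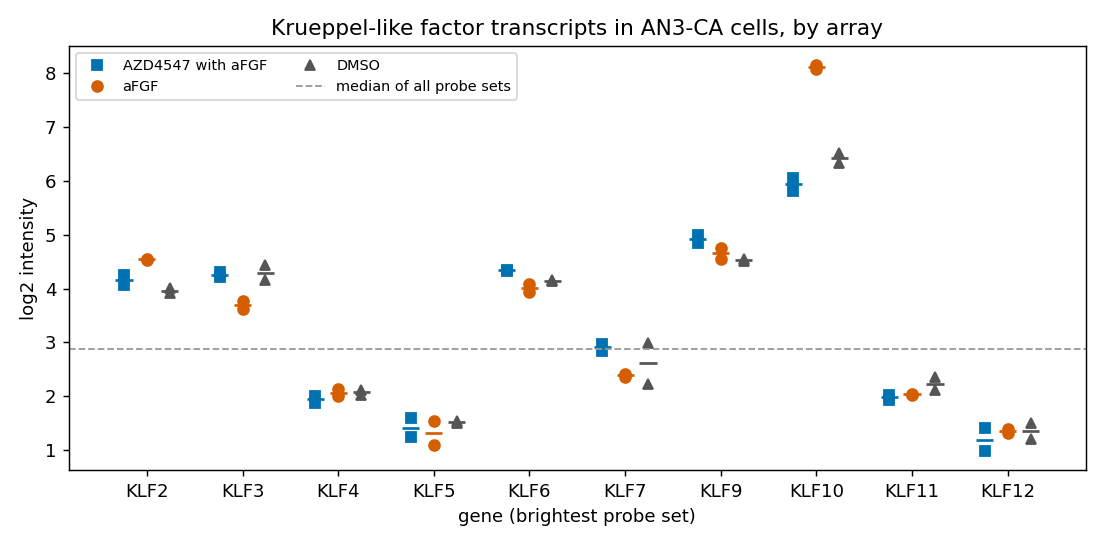
Log2 intensity (vertical axis) of the brightest probe set of each gene (horizontal axis) on the 6 arrays; each point is an array, short bars are means of 2 arrays, and the dashed line is the median of all probe sets (2.87). The aFGF points of KLF10 (8.08 and 8.15) stand far above its other points, while KLF4, KLF5, KLF11 and KLF12 lie below the dashed line on every array.

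**Figure D2:**
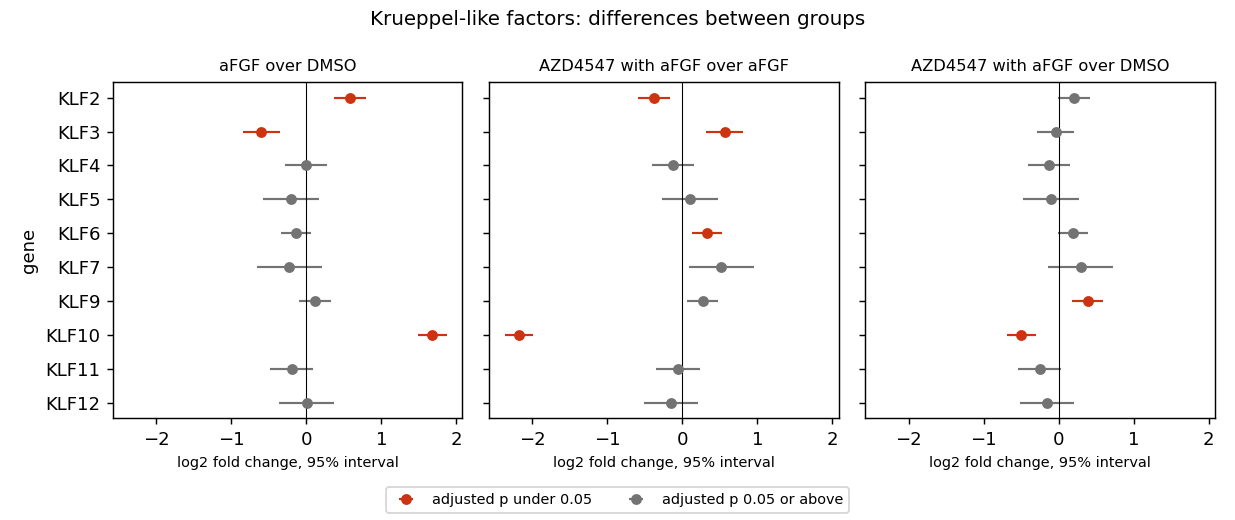
Log2 fold changes (horizontal axis) of the 10 genes in the 3 comparisons with 95% intervals from limma; red marks an adjusted p under 0.05. KLF10 has the widest departure from 0 in the first 2 panels (1.68 and -2.18), and KLF2 and KLF3 lie on opposite sides of 0 from each other in both.

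KLF10, a zinc finger repressor induced early by TGF-beta and by growth factors, changed more than any other member in each comparison. Its brightest probe set, 11733068_s_at, had log2 intensities of 6.06 and 5.82 with AZD4547 and aFGF, 8.08 and 8.15 with aFGF, and 6.53 and 6.34 in DMSO. In linear intensity these were 66.9 and 56.4, 271 and 285, and 92.4 and 81.1. The groups did not overlap in any comparison. aFGF raised KLF10 3.21-fold over DMSO (log2 1.68, SE 0.09, 95% interval 1.49 to 1.87, adjusted p = 2.97e-07). That change ranked 25 by size among the 1128 genes that rose. With AZD4547 it was 4.52-fold lower than with aFGF alone (log2 -2.18, SE 0.09, interval -2.37 to -1.99, adjusted p = 2.36e-08), ranking 20 among the 1930 genes that fell.

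With the inhibitor KLF10 also lay below unstimulated cells, by 1.41-fold (log2 -0.49, SE 0.09, interval -0.68 to -0.30, adjusted p = 0.00952). The second probe set, 11743682_s_at, gave 1.69, -2.23 and -0.54 in the 3 comparisons, with adjusted p over all probe sets of 1.49e-07, 7.81e-09 and 0.00629. At the gene level, the rise with aFGF and the fall with AZD4547 were called under all 14 alternatives. The position below DMSO was less firm, and leaving out any aFGF or AZD4547 array ended the call. The value was -0.62 (adjusted p = 0.0567) without AZD4547 replicate 1, -0.37 (adjusted p = 0.148) without AZD4547 replicate 2, and -0.49 without aFGF replicate 1 or 2 (adjusted p = 0.0612 and 0.0614). It was also lost without the intensity trend (adjusted p = 0.141) and with only the DMSO and AZD4547 arrays in the fit (0.0641).

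KLF11, the closest relative of KLF10, passed no test by its brightest probe set. That probe set, 11727144_a_at, stood at 1.93 and 2.03 with AZD4547 and aFGF, 2.02 and 2.04 with aFGF, and 2.35 and 2.11 in DMSO, dim throughout. The log2 fold change was -0.20 with aFGF (interval -0.49 to 0.09, adjusted p = 0.414) and -0.06 with AZD4547 over aFGF (interval -0.35 to 0.23, adjusted p = 0.826). A second dim probe set, 11727145_s_at, was lower with aFGF than in DMSO (log2 -0.54, SE 0.15, adjusted p = 0.0419), with values of 0.50 and 0.89 against 1.23 in both DMSO arrays. At such levels the size of that difference is uncertain.

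KLF2 restrains proliferation of T cells and is a flow-induced regulator of endothelium. It was measured by 2 probe sets, both above the median. The brighter, 11758208_s_at, had log2 intensities of 4.07 and 4.25 with AZD4547 and aFGF, 4.55 and 4.53 with aFGF, and 3.909 and 4.002 in DMSO. The aFGF arrays lay above both other groups, and the AZD4547 arrays lay just above the DMSO arrays. KLF2 rose 1.5003-fold with aFGF (log2 0.59, SE 0.10, interval 0.38 to 0.80, adjusted p = 0.0016), a call made under all 14 alternatives. It fell with AZD4547 relative to aFGF (log2 -0.38, SE 0.10, interval -0.59 to -0.17, adjusted p = 0.0113).

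The second KLF2 probe set, 11721805_at, gave 0.36 with aFGF (adjusted p = 0.0434) and -0.40 with AZD4547 (adjusted p = 0.0158). Relative to DMSO, KLF2 with AZD4547 had a log2 fold change of 0.21 (interval -0.0047 to 0.42, adjusted p = 0.282) by the brighter probe set and of -0.040 (interval -0.26 to 0.19, adjusted p = 0.908) by the second, so the probe sets differed in sign there. The fall with AZD4547 lost its call without aFGF replicate 1 (-0.37, adjusted p = 0.0911), aFGF replicate 2 (-0.39, adjusted p = 0.0812) or AZD4547 replicate 1 (-0.29, adjusted p = 0.118).

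The bases before the KLF2 and KLF6 start sites are shown because both genes were called here and the GC boxes that the family binds lie there. KLF9, also called, had a window without a GC box, described below, and no window was found for KLF3 or KLF10. Each line gives the 250 bases upstream of the annotated start from RefSeq (GRCh38.p14), KLF2 from the plus strand at chr19:16324576-16324825 and KLF6 from the minus strand at chr10:3785210-3785459. Capitals mark GGGCGG or its reverse complement (a GC box, bound by SP and KLF proteins) and CACGTG (an E-box).
KLF2: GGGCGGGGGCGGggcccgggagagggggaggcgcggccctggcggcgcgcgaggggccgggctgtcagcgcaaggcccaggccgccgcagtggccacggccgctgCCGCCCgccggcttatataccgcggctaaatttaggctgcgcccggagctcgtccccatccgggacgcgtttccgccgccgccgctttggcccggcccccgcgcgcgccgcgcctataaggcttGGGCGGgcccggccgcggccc
KLF6: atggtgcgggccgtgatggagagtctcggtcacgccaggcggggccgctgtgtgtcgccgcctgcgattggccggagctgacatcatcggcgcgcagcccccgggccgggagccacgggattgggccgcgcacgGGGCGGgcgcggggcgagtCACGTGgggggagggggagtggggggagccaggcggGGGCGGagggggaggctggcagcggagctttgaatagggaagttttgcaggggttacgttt
The KLF2 window held 4 GGGCGG matches, 2 of them adjoining at its far end, and the KLF6 window held 2 GGGCGG matches and 1 CACGTG match. Each also held 1 GCGNGGGCG match (the letters of an EGR site), which overlapped a GGGCGG match. No match was found in either window, on either strand, to the KLF element CACCC, the CREB site TGACGTCA, the AP-1 site TGANTCA or the core promoter element TATAAA.

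The same searches were run on 35116 upstream windows of 250 bases. GGGCGG was in 42.6% of them, CACCC in 54.7%, CACGTG in 6.34%, GCGNGGGCG in 8.41%, TGANTCA in 6.57%, TGACGTCA in 1.65% and TATAAA in 10.7%. Windows were found for 8 of the 10 members, 16 windows in all, of which 8 held GGGCGG, 7 CACCC, 4 CACGTG and 3 GCGNGGGCG. The members' windows had a median GC content of 68%, and all windows one of 58%. KLF9 differed from KLF2 (80% GC) and KLF6 (72.4% GC), with 32.4% GC and no match to any of these motifs. A KLF12 window with 38.4% GC held no match to them either. Such matches describe letters only and say nothing of binding in these cells.

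KLF4, a factor of epithelial differentiation and pluripotency, was dim on every array. Its brightest probe set, 11719633_a_at, stood at 2.01 and 1.88 with AZD4547 and aFGF, 2.01 and 2.13 with aFGF, and 2.02 and 2.12 in DMSO. The log2 fold change was -0.0035 with aFGF over DMSO (interval -0.28 to 0.28, adjusted p = 0.993) and -0.12 with AZD4547 over aFGF (interval -0.41 to 0.16, adjusted p = 0.56). KLF5, which drives proliferation in intestinal epithelium, was dimmer still, at 1.24 and 1.60, 1.53 and 1.10, and 1.537 and 1.496 in the same group order. Its log2 fold changes ran from -0.20 to 0.10, with adjusted p between 0.534 and 0.829, and its brightest probe set, 11748762_x_at, can match other transcripts.

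KLF6, a widely expressed activator with tumour suppressor roles, rose with AZD4547. Probe set 11716095_s_at had log2 intensities of 4.32 and 4.35 with AZD4547 and aFGF, 3.93 and 4.08 with aFGF, and 4.15 and 4.14 in DMSO. The aFGF arrays were the lowest and the AZD4547 arrays the highest, with no overlap between groups. The rise over aFGF was 1.26-fold (log2 0.33, SE 0.09, interval 0.13 to 0.53, adjusted p = 0.0193). The other comparisons gave -0.14 with aFGF over DMSO (interval -0.34 to 0.06, adjusted p = 0.392) and 0.19 with AZD4547 over DMSO (interval -0.01 to 0.39, adjusted p = 0.305).

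The next brighter KLF6 probe sets pointed the same way without a call. For AZD4547 over aFGF, 11716093_a_at gave 0.30 (adjusted p over all probe sets = 0.0975) and the dim 11716094_a_at gave 0.47 (adjusted p = 0.0701). The dimmest probe sets differed in sign, with -0.07 for 11760124_a_at (adjusted p = 0.809) and 0.23 for 11760125_a_at (adjusted p = 0.481). The call by the brightest probe set was lost without aFGF replicate 1 (0.26, adjusted p = 0.18), AZD4547 replicate 1 (0.34, adjusted p = 0.0836) or AZD4547 replicate 2 (0.31, adjusted p = 0.104), and on the mean of the 5 probe sets (0.25, adjusted p = 0.0732).

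KLF7, a close relative of KLF6 with a known role in neurons, was measured by 4 probe sets, all dim. The brightest, 11759428_a_at, had 2.97 and 2.84 with AZD4547 and aFGF, 2.35 and 2.42 with aFGF, and 2.99 and 2.23 in DMSO. The 2 DMSO arrays lay farther apart than the means of the other groups did, and DMSO overlapped both. The difference between AZD4547 with aFGF and aFGF was 0.52 (SE 0.20, interval 0.09 to 0.95, adjusted p = 0.0796), which passed the threshold without DMSO replicate 1 (adjusted p = 0.00815) or DMSO replicate 2 (adjusted p = 0.00712). aFGF over DMSO gave -0.23 (adjusted p = 0.555) with both DMSO arrays, -0.60 (adjusted p = 0.0164) without DMSO replicate 2 and 0.15 (adjusted p = 0.616) without DMSO replicate 1, so its direction rests on which DMSO array is used. AZD4547 with aFGF over DMSO likewise gave 0.29 with both, 0.67 (adjusted p = 0.0339) without DMSO replicate 1 and -0.08 without DMSO replicate 2.

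KLF9 is induced by glucocorticoids and acts with the progesterone receptor in endometrium. Probe set 11717326_at had log2 intensities of 5.003 and 4.844 with AZD4547 and aFGF, 4.76 and 4.55 with aFGF, and 4.56 and 4.51 in DMSO. The AZD4547 arrays were the highest, and the aFGF arrays overlapped the DMSO arrays. Relative to DMSO, KLF9 was 1.31-fold higher with AZD4547 and aFGF (log2 0.39, SE 0.10, interval 0.18 to 0.60, adjusted p = 0.0425). Relative to aFGF it had a log2 fold change of 0.27 (interval 0.06 to 0.48, adjusted p = 0.0581), and aFGF over DMSO gave 0.12 (interval -0.09 to 0.33, adjusted p = 0.512).

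A second bright KLF9 probe set, 11717327_at, stood at 3.61 and 3.66, 3.35 and 3.54, and 3.28 and 3.28 in the same group order. It gave 0.35 for AZD4547 with aFGF over DMSO (unadjusted p = 0.00906, adjusted p over all probe sets = 0.136), and in that fit 11717326_at also missed the threshold (adjusted p = 0.0643). The gene's call over DMSO was lost without any single array, the adjusted p then lying between 0.073 (without DMSO replicate 1) and 0.331 (without AZD4547 replicate 1, log2 0.31). On the mean of all 4 probe sets, 2 of them dim, the value was 0.11 (adjusted p = 0.575). The transcripts of its known regulators and partners, NR3C1 for the glucocorticoid receptor (mean 1.00) and PGR (0.48), were dim.

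KLF3, a repressor that recruits CtBP, moved opposite to KLF2 and KLF10. Probe set 11729232_s_at had log2 intensities of 4.31 and 4.21 with AZD4547 and aFGF, 3.62 and 3.77 with aFGF, and 4.43 and 4.16 in DMSO. The aFGF arrays were the lowest, and the AZD4547 arrays fell within the DMSO range. KLF3 was 1.52-fold lower with aFGF than in DMSO (log2 -0.60, SE 0.11, interval -0.84 to -0.35, adjusted p = 0.0035). It rose 1.48-fold with AZD4547 over aFGF (log2 0.56, SE 0.11, interval 0.32 to 0.81, adjusted p = 0.00271). AZD4547 with aFGF over DMSO gave -0.04 (interval -0.28 to 0.21, adjusted p = 0.914).

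The KLF3 probe sets did not give 1 answer. Of the 5, 3 lay above the median and only 11729232_s_at was called. With aFGF over DMSO, 11729231_at and 11729229_at, also above the median, gave -0.09 (adjusted p = 0.783) and -0.18 (adjusted p = 0.423). For AZD4547 over aFGF they gave 0.33 (adjusted p = 0.0955) and 0.07 (adjusted p = 0.756). On the mean of all 5 the changes were -0.23 (adjusted p = 0.17) with aFGF and 0.23 (adjusted p = 0.111) with AZD4547. Without aFGF replicate 1 both calls were lost, at -0.52 (adjusted p = 0.0711) and 0.48 (adjusted p = 0.0526). KLF12, the other CtBP-recruiting member here, was dim in all 6 of its probe sets. Its brightest, 11725184_a_at, stood at 0.98 and 1.41, 1.38 and 1.31, and 1.19 and 1.49 in the same group order, with log2 fold changes between -0.16 and 0.01 and adjusted p of at least 0.574.

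**Figure D3:**
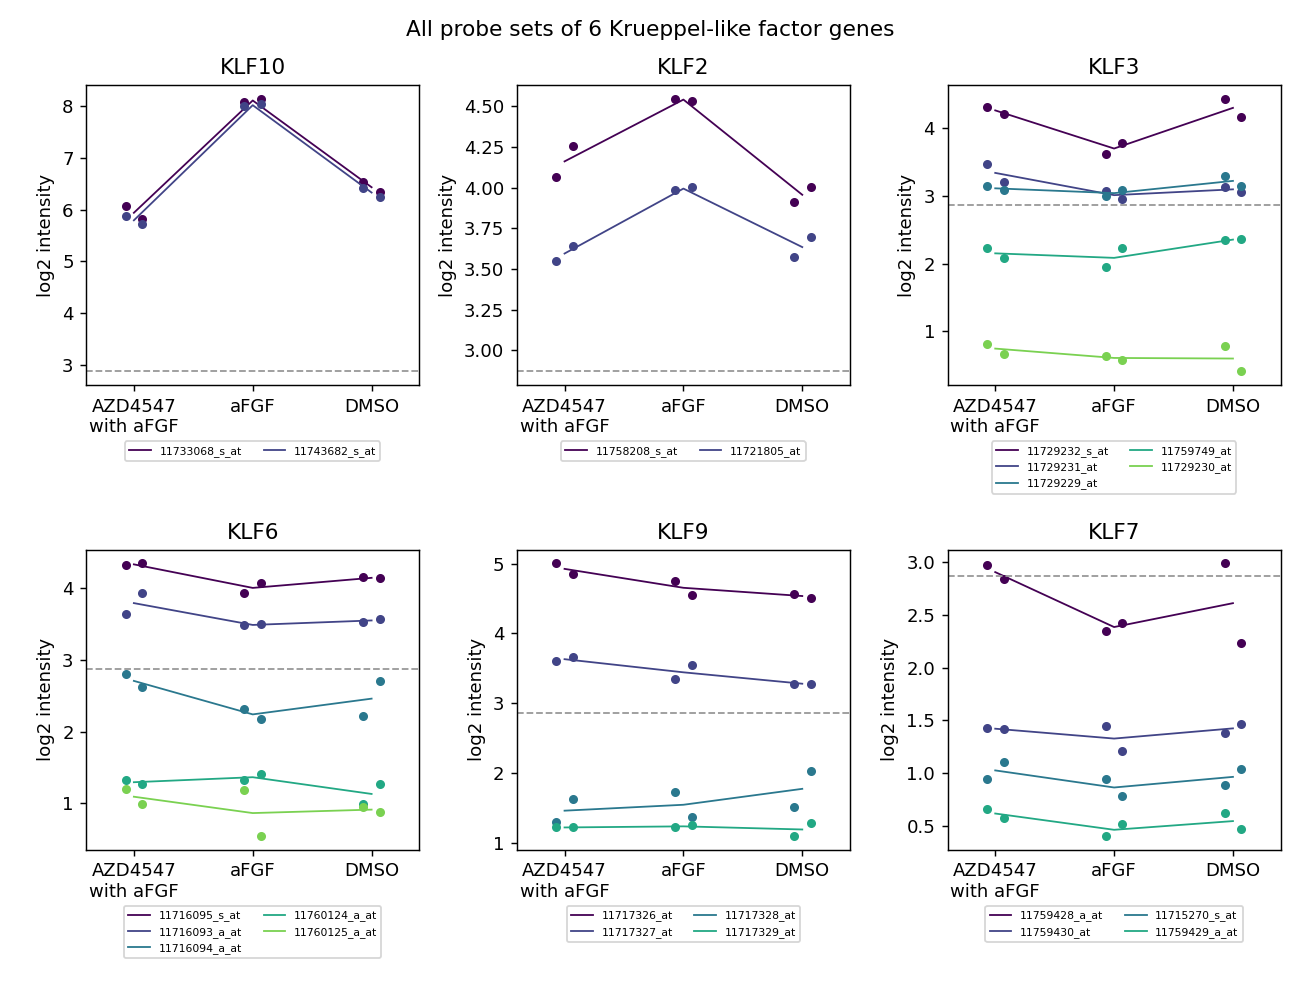
Log2 intensity (vertical axis) of every probe set of 6 genes in the 3 groups (horizontal axis); points are arrays, lines join group means and the dashed line is the median of all probe sets. Both probe sets of KLF10 and of KLF2 peak with aFGF, 1 of the 5 KLF3 probe sets was called, and the DMSO arrays of KLF7 lie apart (2.99 and 2.23).

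**Figure D4:**
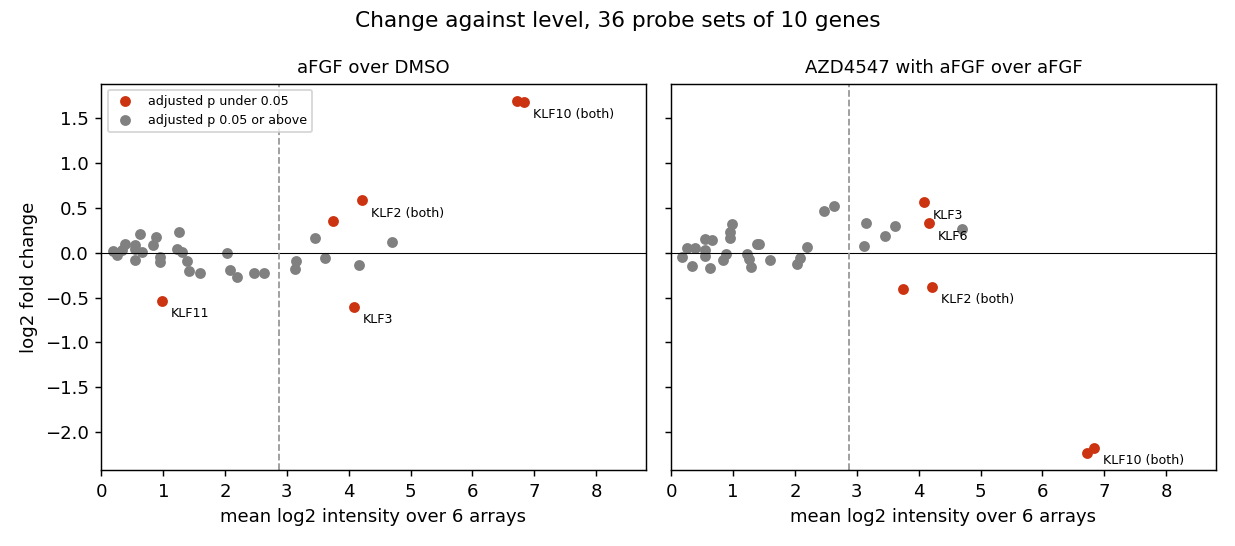
Log2 fold change (vertical axis) against mean log2 intensity over 6 arrays (horizontal axis) for the 36 probe sets, with aFGF over DMSO on the left and AZD4547 with aFGF over aFGF on the right; red marks an adjusted p under 0.05 over all probe sets and the dashed line is the median of all probe sets. All called probe sets lie right of the dashed line, except 1 of KLF11 on the left panel.

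The called probe sets were nearly all bright ones. With aFGF 5 of the 11 bright and 1 of the dim probe sets were called, against 21.1% of all probe sets above the median. With AZD4547 over aFGF 6 of the 11 bright ones were called, against 37.0%, and 2 of the 11 with AZD4547 over DMSO, against 4.80%. At the gene level 3, 4 and 2 of the 5 bright members were called in the 3 comparisons, against 27.0%, 43.5% and 8.26% of bright genes. The smallest p that an exact two-sided permutation of 2 against 2 arrays can reach is 0.333, so the calls rest on limma's spread, which is shared over genes.

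The authors' deposited table holds ratios of each aFGF-treated group over DMSO, with p-values from a test that is not named. For aFGF over DMSO 5 of the 36 members' probe sets passed 0.05 in the authors' deposited table, against 13.8% of all probe sets. They were both probe sets of KLF10 (ratios of 3.20 and 3.23 in the authors' deposited table), both of KLF2 (1.4995 and 1.28) and 11729232_s_at of KLF3 (0.658). For AZD4547 with aFGF over DMSO 3 passed 0.05 in the authors' deposited table, against 8.73%. These were 11716095_s_at of KLF6 and 2 probe sets of KLF9, with ratios of 1.14, 1.31 and 1.28, all above 1. The KLF10 ratios in the authors' deposited table were 0.711 and 0.688 for that comparison, and they did not pass 0.05. The p-values of the authors' deposited table are read here without adjustment. In the limma fit over all probe sets, by adjusted p, only the KLF10 probe sets among the members were called in that comparison, and those of KLF6 and KLF9 were not.

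The rest of the family, the other KLF genes with the related SP factors, had 16 measured genes of 17 listed, 8 of them dim. With aFGF 1 rose and 1 fell, with AZD4547 over aFGF 2 rose and 2 fell, and with AZD4547 over DMSO 1 lay higher and 1 lower, against the same background shares of 15.6%, 25.7% and 4.68%. KLF15, a metabolic regulator induced by glucocorticoids, had log2 intensities of 3.999 and 4.154 with AZD4547 and aFGF, 3.34 and 2.67 with aFGF, and 4.11 and 3.77 in DMSO. It fell with aFGF (log2 -0.93, SE 0.19, adjusted p = 0.00531) and rose with AZD4547 over aFGF (log2 1.07, SE 0.19, adjusted p = 0.00115). The fall was lost without DMSO replicate 1 (-0.76, adjusted p = 0.0517), without aFGF replicate 2 (-0.60, adjusted p = 0.0702) and without the intensity trend (0.0532).

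KLF16, a repressor of the KLF9 subgroup, had 5.08 and 5.12 with AZD4547 and aFGF, 5.68 and 5.70 with aFGF, and 5.41 and 5.50 in DMSO. Its groups followed the order of those of KLF10. It rose by 0.24 with aFGF (adjusted p = 0.0405), fell by 0.59 with AZD4547 (SE 0.07, adjusted p = 7.85e-05) and lay 0.35 below DMSO on the log2 scale (adjusted p = 0.0175). Both the rise and the position below DMSO were lost without most single arrays (adjusted p up to 0.225 and 0.179). SP4 rose with AZD4547 over aFGF (log2 0.49, SE 0.08, adjusted p = 0.000886) and lay above DMSO (0.35, adjusted p = 0.0334), the second a call lost under 8 of 14 alternatives. On the mean of its probe sets the first was 0.27 (adjusted p = 0.043). SP5 fell with AZD4547 (-0.46, adjusted p = 0.0469) at a dim level, a call lost under 7 of 13 alternatives. SP1 and SP3, the ubiquitous members, passed no test.

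**Figure D5:**
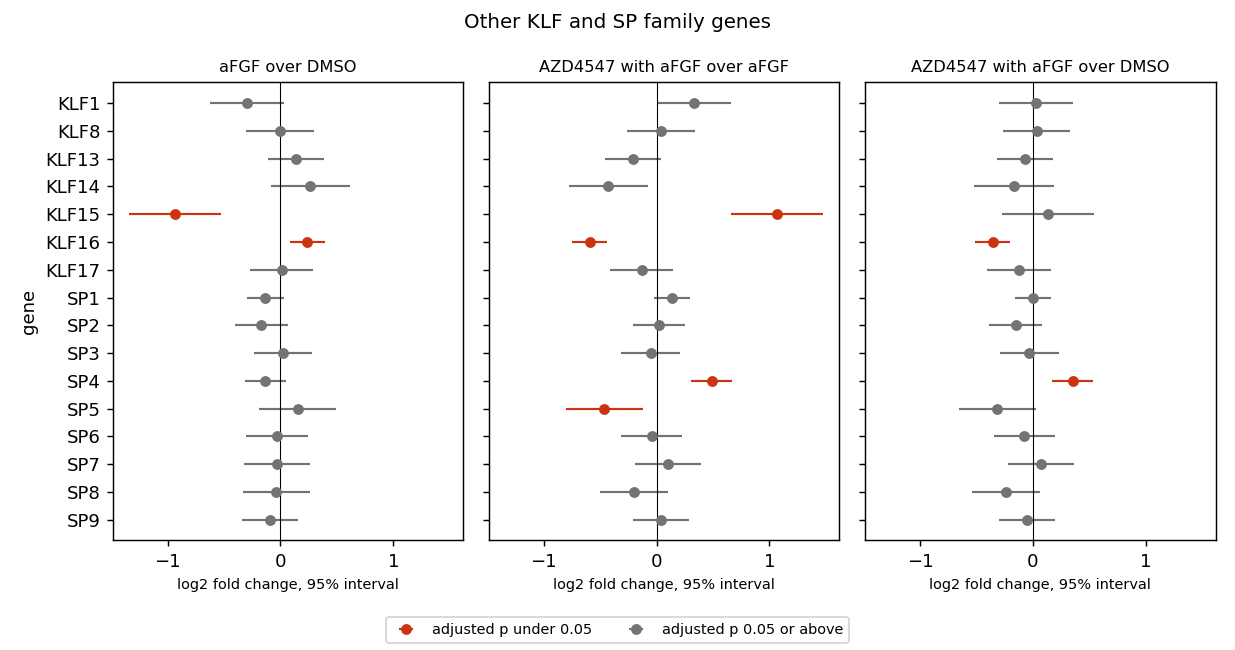
Log2 fold changes (horizontal axis) of the other 16 measured KLF and SP genes in the 3 comparisons with 95% intervals from limma; red marks an adjusted p under 0.05. KLF15 and KLF16 lie on opposite sides of 0 in the first panel (-0.93 and 0.24) and again in the second (1.07 and -0.59).

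Cofactors and regulators of KLF proteins formed a list of 30 genes. With aFGF 2 rose and 3 fell, with AZD4547 over aFGF 9 rose and 5 fell, and with AZD4547 over DMSO 0 were higher and 1 lower, against 15.6%, 25.7% and 4.68% of all genes. The medians were 0.076, 0.0075 and 0.054. SMAD3, which carries the TGF-beta signal that induces KLF10, rose with aFGF (log2 0.66, SE 0.09, adjusted p = 0.000671) and fell with AZD4547 (-0.38, SE 0.09, adjusted p = 0.0109), the fall being lost under 4 of 14 alternatives. On the route that leads to KLF2 in endothelium, the kinase transcripts MAP2K5 (-0.41, adjusted p = 0.0466) and MAPK7 (-0.32, adjusted p = 0.0378) fell with aFGF while MEF2D rose (0.34, adjusted p = 0.0117). The falls of MAP2K5 and MAPK7 each lost their call under 9 of 14 alternatives. The MEF2D rise lost its call under 3 of 14, on the mean of its probe sets (0.20) and without aFGF replicate 1 or 2 (adjusted p up to 0.119). With AZD4547 over aFGF MAP2K5 rose (0.73, SE 0.13, adjusted p = 0.00109), but not on the mean of its probe sets (0.20, adjusted p = 0.197). In that comparison MAPK7 rose (0.37, adjusted p = 0.0113) and MEF2D fell (-0.30, adjusted p = 0.0153). These MAPK7 and MEF2D values were not followed under the alternatives. FHL3, listed as a cofactor of KLF factors, fell with AZD4547 (-0.41, SE 0.08, adjusted p = 0.0021). That call was lost under 1 of 14 alternatives, without _x_at probe sets (adjusted p = 0.106). FHL3 also lay below DMSO (-0.30, adjusted p = 0.0499), a position passing under 5 of 14 alternatives. ELK4, a partner of SRF, fell with AZD4547 as well (-0.52, adjusted p = 0.0215) at a dim level.

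A list of 30 candidate KLF target genes was written from general knowledge of other systems and was not checked against the literature. With aFGF 3 rose and 3 fell, with AZD4547 over aFGF 5 rose and 5 fell, and with AZD4547 over DMSO 1 was higher and 1 lower, against 15.6%, 25.7% and 4.68% of all genes. The medians were -0.018, -0.10 and -0.085, and 14 of the 30 were dim. TGIF1, a corepressor of SMAD signalling, rose with aFGF (log2 0.78, SE 0.08, adjusted p = 5.99e-05) and fell with AZD4547 (-0.98, SE 0.08, adjusted p = 3.96e-06), and so did MYC and the CDK inhibitor gene CDKN1A. MYC had log2 fold changes of 0.92 and -2.30, and CDKN1A of 0.93 and -0.89, and both calls of CDKN1A were lost without aFGF replicate 1 (adjusted p = 0.0871 and 0.0622). The CDKN1A fall was also lost without AZD4547 replicate 1. CDKN1B, a CDK inhibitor, fell with aFGF (-0.64) and rose with AZD4547 (1.03). TGFBR1, a TGF-beta receptor, lay above DMSO with AZD4547 (0.31, SE 0.06, adjusted p = 0.0132), a call lost under 7 of 14 alternatives, and MYC lay below (-1.38).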

How the data were processed

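Total RNA of AN3-CA cells was measured on Affymetrix arrays, 2 per group in 3 groups (cRNA from 500 ng of total RNA, per the labels' protocols). RMA is named in the submitters' processing notes, without its version. Intensity values as deposited were linear, although log2 values had been allowed for, and log2 was taken with no pseudocount. Both deposited tables held the same values (largest difference 0). The ratio and p-value columns are the authors' own, per the file headers. The sources used here name neither the test behind them nor the array type, annotation or genome build.

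Of 49293 probe sets, 47340 carried 1 symbol. Symbols were updated through Entrez identifiers (47089 matched RefSeq), and the brightest single-symbol probe set stood for each of 19040 genes. The test was limma 3.58.1 (R 4.3.3, eBayes with an intensity trend), with 1 mean per group and the 6 arrays in a single model, run over all genes and again over all probe sets. P-values are two-sided, with Benjamini-Hochberg adjustment within a comparison, and intervals are 95%. The fits were tested on simulated arrays. The number of arrays limits the precision (median SE of a log2 fold change 0.117).

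The members, the lists and the rule for named genes were chosen with earlier results of these data known. The rule took every member and, per list and comparison, the 4 called genes with the largest changes. PGR, NR3C1, SP1 and SP3 were named after their values were seen, as were MAPK7 and MEF2D for AZD4547 over aFGF. Alternatives covered the trend, the arrays in the fit, a replicate block, centring, dim genes, the choice of probe set, the other deposited table and each array left out. Proteins were not analysed here. KLF3 and KLF10 are named without sequence.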

Additional observations from a re-analysis of the deposited data

How the results depend on the processing

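The calls of KLF10 and KLF2 with aFGF, and of KLF10 with AZD4547 over aFGF, were made under all 14 alternatives, and no called member reversed. Many calls for AZD4547 with aFGF over DMSO were lost. Without the intensity trend the KLF genes called for AZD4547 over DMSO went to 0, the KLF probe sets to 0, the other family genes to 0, cofactors to 0 and targets to 1. With aFGF the other family genes then stood at 0 and cofactors at 2, and with AZD4547 over aFGF cofactors at 6. With only the 2 groups compared, the counts for AZD4547 over DMSO were 0 KLF genes, 0 probe sets, 0 other family genes, 0 cofactors and 1 target, and with aFGF 1 other family gene and 2 cofactors. On the mean of a gene's probe sets 2 KLF genes were called for AZD4547 over aFGF, and over DMSO 1 KLF gene, 1 other family gene and 1 target. Median centring left 3 cofactors with aFGF and 0 over DMSO, and leaving out _x_at probe sets left 0 over DMSO. Without dim genes 8 cofactors were called with aFGF and 4 targets over DMSO. Median centring moved no call of a member gene, and left 5 member probe sets called with aFGF (4 higher and 1 lower).

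Leaving out single arrays gave 2 to 4 KLF genes with aFGF, 1 to 5 with AZD4547 over aFGF and 0 to 2 over DMSO. For KLF probe sets the ranges were 3 to 6, 2 to 8 and 0 to 2, for other family genes 0 to 2, 3 to 4 and 0 to 2, for cofactors 1 to 10, 4 to 17 and 0 to 5, and for targets 3 to 7, 6 to 10 and 1 to 4. The lone array of a group was then assumed to vary like the other groups.

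No clear pairing by replicate number was seen. Deviations from the group means correlated at 0.05 (aFGF and DMSO), -0.05 (AZD4547 and aFGF) and 0.14 (AZD4547 and DMSO). Such correlations cannot show how the cultures were set up. With a replicate block 8 cofactors were called with aFGF, and 2 cofactors and 4 targets over DMSO. KLF7 and KLF9 then passed the threshold for AZD4547 over aFGF (adjusted p = 0.033 and 0.0293).

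Uncalled values of members changed sign as follows. After median centring KLF4 for aFGF over DMSO was 0.024. On the mean of probe sets KLF4 was 0.10 for aFGF over DMSO, KLF11 0.071 for AZD4547 over aFGF, and KLF3, KLF5 and KLF12 were 0.0079, 0.027 and 0.0088 for AZD4547 over DMSO. Without _x_at probe sets KLF5 was 0.10 for aFGF over DMSO and 0.15 for AZD4547 over DMSO. Without single arrays, aFGF over DMSO ranged from -0.065 to 0.058 for KLF4, -0.42 to 0.012 for KLF5, -0.60 to 0.15 for KLF7 and -0.14 to 0.15 for KLF12. AZD4547 over aFGF then ranged from -0.11 to 0.32 for KLF5 and -0.37 to 0.057 for KLF12, and AZD4547 over DMSO from -0.17 to 0.10 for KLF3, -0.28 to 0.079 for KLF5, -0.083 to 0.67 for KLF7 and -0.36 to 0.062 for KLF12. The cause of these changes was not tested. Dim levels limit what can be said of KLF4, KLF5, KLF7, KLF11 and KLF12.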
